A study of Mus musculus with 12 samples.

Results

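Solute carriers (Slc genes) encode membrane proteins that move amino acids, sugars, ions, metals, vitamins and lipids across the plasma membrane and the membranes of organelles. The carriers described here were every gene of the normalized table whose symbol begins with Slc, a family number, the letter a and a member number. The mitochondrial Slc25 family, the glucose carriers Slc2a1, Slc2a3 and Slc2a4, the lactate carriers Slc16a1 and Slc16a3, the cystine carrier Slc7a11 and the erythroid anion exchanger Slc4a1 were left out by the same rule. That gave 139 genes with 192 probes, of 15434 gene symbols and 21004 probes in the table. Members were sorted by family number into 33 carriers of amino acids and amines, 15 of sugars and nucleotide sugars, 26 of inorganic ions, 26 of metals and heme, 17 of organic ions and carboxylates and 18 of peptides, nucleosides, vitamins, lipids and other substrates. The remaining 4 members were named after a carrier but are not carriers (Slc4a1ap, Slc7a6os, Slc9a3r1 and Slc9a3r2). The intensity table carries 467 probes under 264 such symbols, of which 256 probes lie outside the normalized table, and 24 others carry another symbol there.

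RNA of hip cartilage from C57BL6 mice, aged 4 to 6 weeks by the labels and within a narrower range by the study's methods, was hybridized to Illumina mouse BeadChips, on which each probe gives 1 signal per array. The 12 arrays formed 4 groups of 3 (control and injured cartilage of WT and of Mapk9 KO mice), where Mapk9 KO mice lack a c-Jun N-terminal kinase. Injury was avulsion of the femoral epiphysis, after which control cartilage was frozen at once and injured cartilage was kept in serum-free medium for 4 h, so injury and culture cannot be told apart. Each sample pooled the hips of several mice, and the allele of the knockout is not described in the sources used here.

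Cartilage has no blood supply, and its chondrocytes live in a dense matrix rich in charged proteoglycans. Nutrients reach them by diffusion, and carriers set what enters the cell. Amino acid carriers often work as exchangers or sodium-coupled importers, and several of them, among them Slc7a5, need the heavy chain Slc3a2 to reach the cell surface. Phosphate, sulfate, zinc and iron carriers are known for roles in matrix synthesis, mineralization and inflammation.

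All signals below are the deposited log2 values, and differences are on the same log2 scale. Detection (a detection p-value under 0.05) covered between 16833 and 18530 probes of the table per array, and 86 of the 139 members were detected on all 12 arrays at their brightest probe, while 6 were detected on fewer than 3. Where every array of a group left a probe undetected, its fold is given as "at least", the mean of the brighter group over the mean, across the dim arrays, of the higher of the lowest detected value on that array and the probe's own value. Mapk9 checked the genotype labels: its brightest probe gave 10.05 to 10.90 on the WT arrays and 8.69 to 9.28 on the Mapk9 KO arrays, with no overlap. Markers of other tissues moved with injury. Of 15 skeletal muscle genes, 12 fell in WT and 15 in Mapk9 KO, and the mean of the list per array was 10.78 to 12.61 in WT control, 8.15 to 10.03 in WT injured, 12.62 to 13.03 in Mapk9 KO control and 8.6 to 9.75 in Mapk9 KO injured. Of 7 macrophage genes, 6 fell in WT (array means of 9.04 to 9.38 in control and 7.46 to 8.01 in injured arrays) and 7 in Mapk9 KO (9.22 to 9.41 and 7.14 to 7.41). Of 7 measured chondrocyte genes, 5 rose in each genotype, from array means of 10.16 to 10.86 over the control arrays to 11.88 to 12.23 over the injured arrays. Osteoblast, adipocyte, osteoclast and erythroid genes had 2 of 6, 2 of 3, 1 of 3 and 2 of 8 lower in WT and none higher, and neutrophil and endothelial genes 2 of 7 and 1 of 7 higher and none lower. Among the lower adipocyte genes, Cidec was detected on only 2 arrays. In Mapk9 KO the same lists had 3, 2, 2 and 1 genes lower and none higher, and 1 neutrophil and 0 endothelial genes higher. Their part in the carrier changes below was not tested, and in these bulk samples fewer cells of a type and less RNA per cell cannot be told apart.

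Injury changed the level of 34 members in WT, with 17 upregulated and 17 downregulated. The upregulated members included 1 that is not a carrier (Slc9a3r1). A change was called when the fold exceeded 2 and the adjusted p, from limma and adjusted over every probe by the Benjamini-Hochberg method, was under 0.05, each gene being represented by its probe with the highest mean. Control and injured arrays of a genotype did not overlap at the brightest probe of any called member, which adds little, since the threshold favours such genes. Members not called, among them Slc6a9 and Slc4a2, also had arrays without overlap. The called share was 24.5% of the members, against 14.7% of all 15434 genes (7.5% higher and 7.15% lower). In Mapk9 KO 44 members were called, 23 higher and 21 lower, which was 31.7% of the members against 18.5% of all genes (9.0% higher and 9.54% lower). Medians of the log2 change over the members were -0.02 in WT and 0.04 in Mapk9 KO, beside -0.02 and -0.04 over all genes. When a gene counted as called at any of its probes, 41 members passed in WT (16.6% of all genes did) and 51 in Mapk9 KO (20.9% of all genes). With quantile normalization and no background correction fewer members passed, 13 in WT (8 higher and 5 lower) beside 5.92% of all genes, and 21 in Mapk9 KO beside 8.92%, and 33 of the 34 WT calls still had an adjusted p under 0.05 in the same direction there. The 13 were Slc7a3, Slc7a5, Slc1a4, Slc38a3, Slc6a12, Slc15a3, Slc27a4 and Slc2a6, higher, and Slc38a5, Slc6a8, Slc37a1, Slc20a2 and Slc40a1, lower. Normexp background correction with quantile normalization kept 30 of 34 and 40 of 44 calls, losing Slc22a18, Slc36a2, Slc38a2 and Slc39a11 in WT and Slc11a1, Slc39a4, Slc7a4 and Slc9a9 in Mapk9 KO. The methods' t-test, with Benjamini-Hochberg adjustment and the same fold limit, kept 23 of 34 and 36 of 44.

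Calls were unevenly spread over the substrate classes, which is given as a count with no test of the classes. Amino acid and amine carriers had 14 of 33 members called in WT (9 higher, 5 lower) and 15 in Mapk9 KO (9 higher, 6 lower). Those shares were 42.4% and 45.5%, beside 14.7% and 18.5% of all genes. Shares in WT and Mapk9 KO were 13.3% and 13.3% for sugars, 23.1% and 26.9% for inorganic ions and 19.2% and 23.1% for metals. They were 11.8% and 41.2% for organic ions and 22.2% and 38.9% for peptides and the other substrates. Inorganic ion carriers had 6 lower and 0 higher in WT and 7 lower and 0 higher in Mapk9 KO at the brightest probe, although dimmer probes of 2 members (Slc12a3 and Slc20a1) rose in WT. Metal and heme carriers had 3 higher and 2 lower in WT and 3 and 3 in Mapk9 KO. For sugar carriers 1 gene rose and 1 fell in each genotype. Organic ion carriers had 0 higher and 2 lower in WT and 4 higher and 3 lower in Mapk9 KO. The class of peptides, nucleosides, vitamins, lipids and others had 3 higher and 1 lower in WT and 6 higher and 1 lower in Mapk9 KO, with the highest median log2 change of the classes (0.46 and 0.72).

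**Figure D1:**
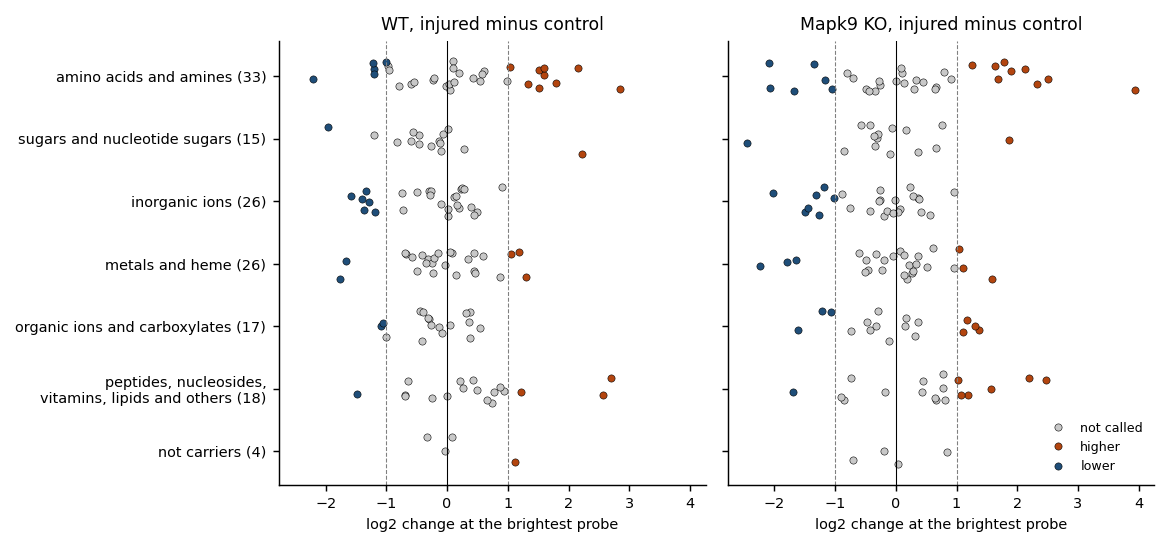
Log2 change (injured minus control, x axis) of each of the 139 member genes at its brightest probe, by substrate class (y axis, number of genes in parentheses), in WT (left) and Mapk9 KO (right). Orange points are called higher, blue lower and grey not called, dashed lines mark a 2-fold change, and the inorganic ion row holds no orange point in either panel.

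Of the 2 measured carriers of cationic amino acids, 1 rose in WT and both in Mapk9 KO. For Slc7a3, a carrier of arginine and lysine, the WT control arrays gave 6.53, 5.36 and 5.45, detected on 1 of 3, and the WT injured arrays 8.62, 8.67 and 8.58. In Mapk9 KO the control arrays gave 5.33, 5.56 and 4.60, undetected on all 3, and the injured arrays 9.16, 8.82 and 9.34. Injured and control arrays did not overlap in either genotype, and 1 WT control array stood above the other control arrays. Slc7a3 rose by 2.84 in WT (SE 0.30, adjusted p = 0.000132) and was at least 9.01-fold higher after injury in Mapk9 KO (adjusted p = 1.24e-06). Its relative Slc7a2, which also carries arginine, was just short of the fold limit in WT at its brightest probe (log2 change 0.99, SE 0.22, adjusted p = 0.00926) and rose by 1.63 in Mapk9 KO (SE 0.18, adjusted p = 5.51e-05). A dimmer Slc7a2 probe, detected on no control array and on 1 WT injured array, also passed the threshold in WT (adjusted p = 0.0212), which gives no fold, and that call was lost without WT control replicate 1, WT injured replicate 2 or WT injured replicate 3, by the methods' t-test and under normexp with quantile normalization (adjusted p = 0.0677).

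The heteromeric carrier of large neutral amino acids rose in both of its chains. Slc7a5, the light chain that carries leucine and other large neutral amino acids, gave 11.42, 11.27 and 10.89 in WT control and 13.02, 13.05 and 12.90 in WT injured arrays. The Mapk9 KO arrays gave 10.93, 11.19 and 11.29 before and 12.92, 13.07 and 12.78 after injury. All 6 injured arrays lay above all 6 control arrays. The rise was 1.80 in WT (SE 0.21, adjusted p = 0.000253) and 1.79 in Mapk9 KO (SE 0.18, adjusted p = 2.52e-05), several times the spread between arrays of a group. Slc3a2, its heavy chain, was detected on none of the 6 control arrays and on 5 of the 6 injured arrays. It gave 5.84, 6.55 and 6.74 in WT injured and 5.77, 6.94 and 6.80 in Mapk9 KO injured arrays, at least 1.44-fold higher than in control arrays in WT (adjusted p = 0.000405) and at least 1.48-fold in Mapk9 KO (adjusted p = 0.00132). Slc7a8, another light chain of the same heavy chain, moved the other way. It gave 8.08, 7.29 and 7.75 in WT control and 6.25, 6.48 and 6.76 in WT injured arrays, and 8.27, 8.46 and 8.03 and 6.58, 6.05 and 5.90 in Mapk9 KO. It fell by 1.21 in WT (SE 0.25, adjusted p = 0.00608) and by 2.08 in Mapk9 KO (SE 0.22, adjusted p = 3.34e-05). The 3 other measured members of the heteromeric set (Slc7a6, Slc7a7 and Slc7a10) were not called in either genotype, and Slc7a10 was detected on no array. The methods' t-test lost the WT call of Slc7a8 and the Mapk9 KO call of Slc3a2 (adjusted p = 0.0703 and 0.0668).

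Of 5 measured carriers of small neutral amino acids 2 rose in each genotype, and of the glutamate carriers Slc1a1, Slc1a2, Slc1a3, Slc1a6 and Slc1a7 only Slc1a1 was called. Slc1a4, an exchanger of alanine, serine and cysteine, gave 9.33, 8.52 and 8.94 in WT control and 10.06, 10.50 and 10.21 in WT injured arrays, and 8.29, 8.68 and 7.96 and 10.52, 10.39 and 10.42 in Mapk9 KO. Every injured array was above every control array, and Slc1a4 rose by 1.33 (SE 0.25, adjusted p = 0.00356) and 2.13 (SE 0.21, adjusted p = 1.96e-05). For Slc38a2, a sodium-coupled importer of neutral amino acids, the change was near the fold limit in WT (1.04, SE 0.23, adjusted p = 0.00825) and fell below it without either WT control replicate 3 or replicate 2 of WT injured (0.87 and 0.92), while in Mapk9 KO it was 1.25 (SE 0.18, adjusted p = 0.000316). Only its brightest probe was called, and the dimmer probes changed by -0.31 and 0.42 in WT. Slc38a3, a glutamine carrier, rose by 1.59 in WT (SE 0.32, adjusted p = 0.00522) from arrays at 7.89, 6.89 and 8.16 to arrays at 9.09, 9.55 and 9.08, and by 1.69 in Mapk9 KO (SE 0.18, adjusted p = 4.41e-05). Slc1a1, a glutamate carrier, rose by 1.59 in WT (SE 0.19, adjusted p = 0.0003) and was at least 3.36-fold higher in Mapk9 KO, where no control array detected it. The methods' t-test lost the WT calls of Slc1a4, Slc38a2 and Slc38a3 (adjusted p = 0.0573, 0.0621 and 0.0906). Of the small neutral set, Slc1a5, Slc38a1 and Slc38a4 were not called in either genotype.

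**Figure D2:**
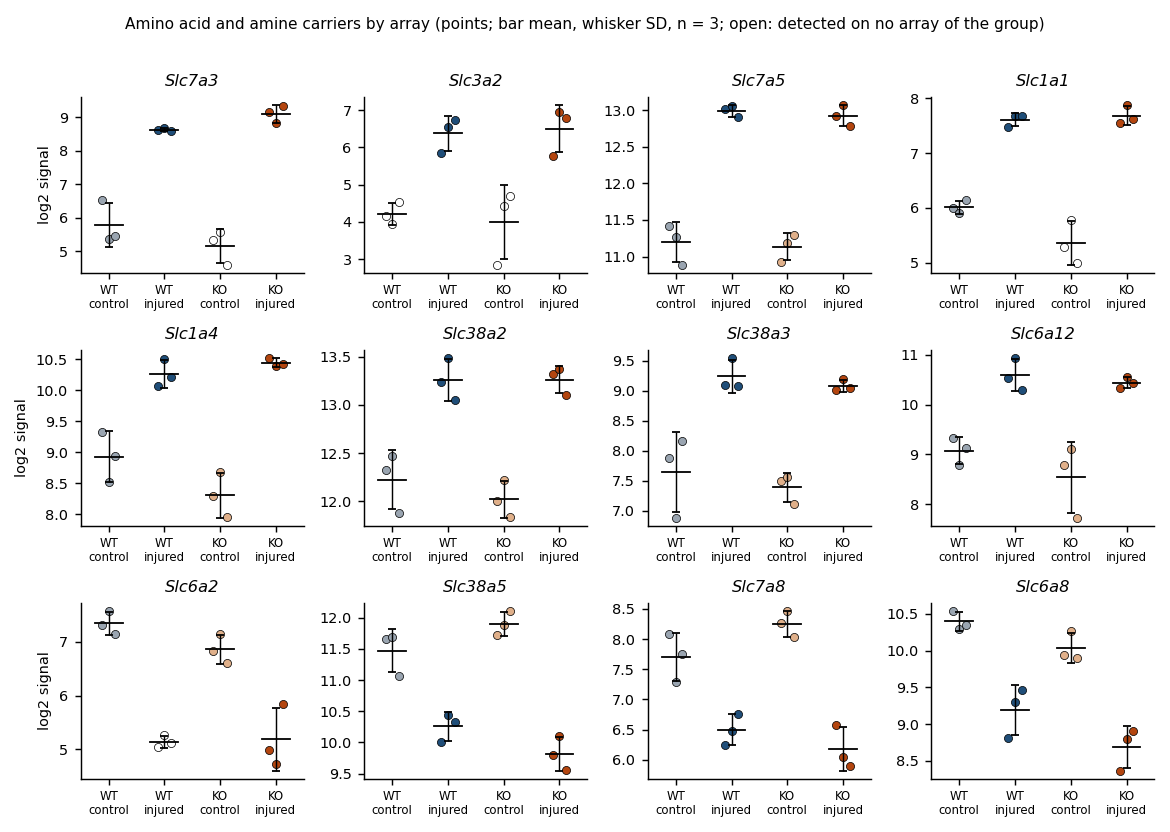
Log2 signal (y axis) of 12 carriers of amino acids and amines on each array of the 4 groups (x axis), with the group mean and SD, and open points where no array of the group detected the probe. In the 8 upper panels every injured array lies above every control array of its genotype, and in the 4 lower panels every injured array lies below.

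Carriers of osmolytes and neurotransmitters of the Slc6 family split. Slc6a12, which imports betaine, gave 9.32, 8.79 and 9.12 in WT control and 10.53, 10.94 and 10.30 in WT injured arrays, and 8.79, 9.10 and 7.73 and 10.33, 10.55 and 10.44 in Mapk9 KO. It rose by 1.51 in WT (SE 0.24, adjusted p = 0.00141) and 1.90 in Mapk9 KO (SE 0.30, adjusted p = 0.000623). Its neighbour in function Slc6a13, a carrier of GABA and taurine, rose in WT (1.52, SE 0.38, adjusted p = 0.0157) from widely spread control arrays (6.57, 7.70 and 5.98). That call was lost without WT control replicate 1, WT injured replicate 1 or WT injured replicate 2 (log2 change 1.43 in each case) and by the methods' t-test (adjusted p = 0.154), and the change of 0.67 in Mapk9 KO did not reach the fold limit. Slc6a2, the noradrenaline carrier, gave 7.32, 7.58 and 7.15 in WT control arrays and was detected on no WT injured array, at least 2.85-fold lower (adjusted p = 6.5e-05), and fell by 1.68 in Mapk9 KO (SE 0.28, adjusted p = 0.000759), where 1 of 3 injured arrays detected it. Slc6a8, the creatine carrier, fell by 1.21 in WT (SE 0.22, adjusted p = 0.00359) and 1.34 in Mapk9 KO (SE 0.20, adjusted p = 0.000424), beside the fall of the muscle markers given above. The myo-inositol carrier Slc5a3 was not called, with changes of -0.13 and -0.43.

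The other amino acid carriers that fell in both genotypes were Slc38a5 and Slc36a2. Slc38a5, a glutamine and asparagine carrier, averaged 11.47 ± 0.35 in WT control and 10.26 ± 0.23 in WT injured arrays (SD, n = 3), and the Mapk9 KO arrays gave 11.72, 11.88 and 12.11 before and 9.80, 10.10 and 9.56 after injury. All injured arrays were lower than all control arrays, with a fall of 1.22 in WT (SE 0.24, adjusted p = 0.0045) and 2.09 in Mapk9 KO (SE 0.20, adjusted p = 1.69e-05). Slc36a2, a proton-coupled carrier of small amino acids, lay close to the fold limit in WT (-1.01, adjusted p = 0.00513). It missed the limit without WT control replicate 3, WT injured replicate 1 or WT injured replicate 2 (-0.96, -0.93 and -0.97) and, in Mapk9 KO, without Mapk9 KO injured replicate 3 (-0.96). Centring each array on its median also ended the WT call of Slc36a2, and the methods' t-test that of Slc38a5 (adjusted p = 0.0566).

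RefSeq promoter windows (GRCm38.p6, 250 bases before to 50 after each start) were found for 103 of the 139 members. Shown here are stretches of 3 amino acid carriers that rose together, with the searched motifs in capitals, because the rising amino acid carriers were the most numerous group. Each is written 5′ to 3′ on the gene's strand. The Slc38a2 stretch is chr15:96699729-96699978, the Slc3a2 stretch chr19:8713898-8714147 and the short Slc1a4 stretch chr11:20332702-20332726, all on the minus strand, and the stretches of Slc38a2 and Slc3a2 end at the base before the start.
Slc38a2: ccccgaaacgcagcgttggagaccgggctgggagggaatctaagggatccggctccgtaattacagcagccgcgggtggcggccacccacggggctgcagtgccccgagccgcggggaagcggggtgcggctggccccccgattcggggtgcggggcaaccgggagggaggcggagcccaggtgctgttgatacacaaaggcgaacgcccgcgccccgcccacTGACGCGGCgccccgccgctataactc
Slc3a2: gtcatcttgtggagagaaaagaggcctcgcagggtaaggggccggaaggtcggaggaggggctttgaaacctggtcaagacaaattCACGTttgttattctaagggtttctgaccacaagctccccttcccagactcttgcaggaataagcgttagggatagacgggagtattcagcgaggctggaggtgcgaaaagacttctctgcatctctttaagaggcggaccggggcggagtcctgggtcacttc
Slc1a4: cctcctgcGTTGCATCAtctccagc

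The motifs searched, on both strands, were the core of the ATF4 and CHOP composite element (TGATGNAAN), metal response element cores (TGCACNC and TGCGCNC), the AP-1 site (TGANTCA), the hypoxia core (ACGTG) and the antioxidant element core (TGACNNNGC), of which the AP-1 and antioxidant letters can overlap. In the Slc38a2 stretch the capitals mark an antioxidant element core 27 to 19 bases before the start, and in Slc3a2 a hypoxia core 164 to 160 bases before it. In Slc1a4 they mark the ATF4 and CHOP core, with 5 bases before the start and 4 after it. Of the 9 amino acid carriers that rose in WT, 6 had a window, and the ATF4 and CHOP core was found in 1 of these genes, beside 3.95% of all 32851 windows. The metal response cores were in 1 of the 6 (25.7% of all windows), the AP-1 site in 1 (7.81%), the hypoxia core in 2 (19.6%) and the antioxidant core in 2 (12.4%). A match is a run of letters and not a shown binding site, and genes with several windows had more chances to hold one.

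Of the 18 carriers of peptides, nucleosides, vitamins, lipids and others 3 rose in WT and 6 in Mapk9 KO. Slc15a3, which carries peptides and histidine out of lysosomes, gave 8.13, 8.39 and 7.76 in WT control and 10.80, 10.97 and 10.62 in WT injured arrays. The Mapk9 KO arrays gave 8.04, 7.81 and 8.10 and 10.39, 10.86 and 10.10. All injured arrays lay far above all control arrays, and the rise was 2.70 in WT (SE 0.22, adjusted p = 3.54e-05) and 2.47 in Mapk9 KO (SE 0.22, adjusted p = 9.97e-06). Its relative Slc15a4 rose by 1.22 (SE 0.22, adjusted p = 0.00296) and 1.19 (SE 0.17, adjusted p = 0.000273). For the peptide carrier Slc15a2 the brightest probe changed by 0.94 in WT (adjusted p = 0.209) and rose by 1.57 in Mapk9 KO (adjusted p = 0.00354, and 0.0828 by the methods' t-test). Another Slc15a2 probe, which no array detected, passed the threshold in the opposite direction in both genotypes (adjusted p = 0.0338 and 0.00268). Normexp background correction with quantile normalization ended that call in both genotypes (log2 change -0.31 and -0.40). In WT it was also lost with the replicate number as a block (adjusted p = 0.0574) and without WT control replicate 2, WT control replicate 3, WT injured replicate 1 or WT injured replicate 2, and in Mapk9 KO without Mapk9 KO injured replicate 1.

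Of the 4 measured fatty acid transport proteins 1 rose and 1 fell in WT, and 2 rose and 1 fell in Mapk9 KO. Slc27a4 gave 6.42, 5.82 and 6.42 in WT control and 8.79, 8.84 and 8.72 in WT injured arrays, and 6.52, 6.81 and 6.22 and 8.80, 8.98 and 8.38 in Mapk9 KO. It rose by 2.57 in WT (SE 0.22, adjusted p = 4.55e-05) and 2.20 in Mapk9 KO (SE 0.22, adjusted p = 2.4e-05). Slc27a1, the form prominent in muscle and fat, gave 8.54, 7.51 and 8.20 in WT control and 6.25, 6.71 and 6.86 in WT injured arrays, a fall of 1.48 (SE 0.29, adjusted p = 0.00444), and it fell by 1.69 in Mapk9 KO (SE 0.29, adjusted p = 0.000976). Control and injured arrays of both genes did not overlap, and muscle and adipocyte markers (2 of 3 measured adipocyte genes) fell beside Slc27a1. Of those adipocyte genes Cfd was detected on 11 arrays and Cidec on only 2. The methods' t-test lost the WT call of Slc27a1 (adjusted p = 0.0777). The folate carrier Slc19a1 rose in Mapk9 KO (1.03, SE 0.17, adjusted p = 0.000881) and changed by 0.87 in WT, under the fold limit, and its call in Mapk9 KO was lost without Mapk9 KO control replicate 1 or Mapk9 KO injured replicate 1.

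Among sugar carriers, Slc2a6, a glucose transporter family member of intracellular membranes, was the only gene called higher at the brightest probe in either genotype. It gave 7.41, 7.93 and 7.35 in WT control and 9.89, 9.94 and 9.52 in WT injured arrays, and 7.43, 7.87 and 7.54 and 9.31, 9.87 and 9.25 in Mapk9 KO. It rose by 2.22 in WT (SE 0.23, adjusted p = 0.000131) and 1.86 in Mapk9 KO (SE 0.22, adjusted p = 7.03e-05). Slc37a1, which exchanges glucose 6-phosphate for phosphate across the endoplasmic reticulum, was the only one called lower. Its WT control arrays gave 10.24, 9.76 and 9.75 and its WT injured arrays 7.62, 8.08 and 8.18, and the Mapk9 KO arrays 9.77, 10.16 and 9.58 and 7.18, 7.28 and 7.70. It fell by 1.96 in WT (SE 0.23, adjusted p = 0.000294) and 2.45 in Mapk9 KO (SE 0.21, adjusted p = 9.61e-06), with no overlap. The measured carriers of nucleotide sugars for matrix synthesis (Slc35a1, Slc35a2 and Slc35a3) were not called in either genotype, with changes between -0.56 and -0.12 in WT and between -0.30 and 0.76 in Mapk9 KO.

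At the brightest probe the called ion carriers were all lower. Slc8a1, the sodium-calcium exchanger, gave 8.6, 8.80 and 8.45 in WT control and 7.46, 7.37 and 7.13 in WT injured arrays, with no overlap and a fall of 1.29 (SE 0.20, adjusted p = 0.00139). Slc24a3, an exchanger of sodium for calcium and potassium, fell by 1.19 (SE 0.20, adjusted p = 0.00219). The Mapk9 KO falls were 1.27 (adjusted p = 0.000213) and 1.44 (adjusted p = 0.000219). Among sodium-proton exchangers, Slc9a2 at its brightest probe was detected on all 6 control arrays and on no injured array. It was at least 2.47-fold lower in WT (adjusted p = 0.00719) and at least 3.45-fold lower in Mapk9 KO (adjusted p = 6.94e-06). The endosomal exchanger Slc9a9 showed the same pattern of detection, with 6.81, 6.41 and 6.74 in WT control arrays. It was at least 1.76-fold lower in WT (adjusted p = 0.000361) and at least 1.42-fold in Mapk9 KO (adjusted p = 0.00241), where the call was lost without Mapk9 KO control replicate 2, Mapk9 KO injured replicate 2 or Mapk9 KO injured replicate 3 (log2 change -0.93, -0.99 and -0.90). Slc12a8, a member of the cation-chloride cotransporter family, fell by 1.37 in WT (SE 0.22, adjusted p = 0.00158), where 1 of 3 injured arrays detected it, and was at least 1.79-fold lower in Mapk9 KO (adjusted p = 0.00249). The methods' t-test lost the WT call of Slc9a2 and the Mapk9 KO call of Slc12a8 (adjusted p = 0.0964 and 0.0671). The potassium-chloride cotransporter Slc12a7 changed by -0.75 in WT (adjusted p = 0.0525) and was at least 1.58-fold lower in Mapk9 KO (adjusted p = 0.000601).

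The sodium-phosphate carriers showed a disagreement between probes. Slc20a2 gave 9.99, 10.31 and 9.81 in WT control and 8.61, 8.66 and 8.81 in WT injured arrays and fell by 1.34 in WT (SE 0.21, adjusted p = 0.00127) and 1.31 in Mapk9 KO (SE 0.17, adjusted p = 0.00016). Its dimmer probe changed by -0.42 in WT and -0.47 in Mapk9 KO and was not called (adjusted p = 0.177 and 0.0765), with overlapping arrays. The brightest Slc20a1 probe, by its mean over all arrays, was not called, with changes of 0.44 and 0.42. On injured arrays it averaged 6.76 in WT and 7.03 in Mapk9 KO, below the probe described next. The choice of probe therefore decides whether Slc20a1 counts as higher. Another Slc20a1 probe was detected on no control array and gave 8.17, 8.08 and 8.01 in WT injured and 8.26, 7.88 and 7.96 in Mapk9 KO injured arrays, at least 4.72-fold higher in WT (adjusted p = 5.98e-05) and 4.28-fold in Mapk9 KO (adjusted p = 2.78e-06). The last Slc20a1 probe was at least 1.84-fold and 1.74-fold higher, in WT not by the methods' t-test (adjusted p = 0.0818). The taurine carrier Slc6a6 also had probes that differed. Its brightest probe changed by 0.58 in WT and 0.91 in Mapk9 KO without reaching the fold limit. Its other probe was detected on no control array and gave 8.80, 8.68 and 8.48 in WT injured and 8.42, 8.56 and 8.40 in Mapk9 KO injured arrays, at least 7.0-fold and 5.75-fold higher (adjusted p = 2.58e-06 and 6.89e-07). For Slc12a3, the sodium-chloride cotransporter, the brightest probe changed by 0.28 and 0.29, while its 3 dimmer probes were called higher in both genotypes. Calls in WT at 2 of these were lost without WT control replicate 1, WT control replicate 3, WT injured replicate 1 or WT injured replicate 2, with log2 changes between 0.85 and 1.30, and by the methods' t-test, and at 1 of them the WT control and WT injured arrays overlapped. At the remaining probe the Mapk9 KO call was lost without Mapk9 KO control replicate 1 (0.93) and by the methods' t-test (adjusted p = 0.0545).

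**Figure D3:**
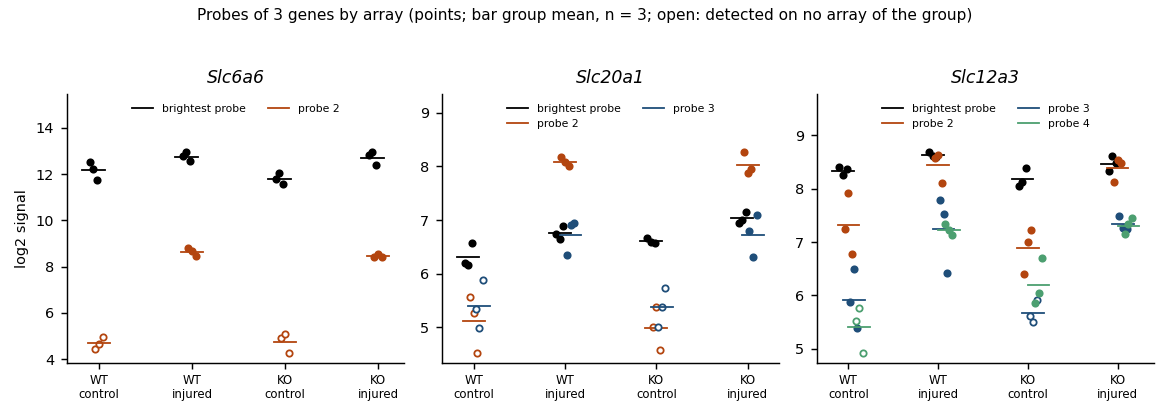
Log2 signal (y axis) of each probe of Slc6a6, Slc20a1 and Slc12a3 on the arrays of the 4 groups (x axis), with bars at the group means and open points where no array of the group detected the probe. The brightest probe of each gene stays under a 2-fold change, while the dimmer probes rise, for Slc6a6 from 4.29 to 5.08 on control arrays to 8.40 to 8.80 on injured arrays. A dimmer Slc12a3 probe was detected on every control array, at 6.41 to 7.92.

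Of 9 measured importers of family Slc39, 3 rose in WT and 2 in Mapk9 KO and 0 fell, and of 9 measured members of family Slc30, which mostly export zinc, 0 rose and 1 fell in each genotype at the brightest probe. Of all genes 7.5% were higher and 7.15% lower in WT, and 9.0% and 9.54% in Mapk9 KO. The difference between the families was not tested. Slc39a14, which imports zinc and iron, was detected on no control array and gave 5.97, 6.60 and 6.51 in WT injured and 6.55, 6.39 and 7.16 in Mapk9 KO injured arrays, at least 1.43-fold higher in WT (adjusted p = 0.00233) and 1.7-fold in Mapk9 KO (adjusted p = 0.000392). A dimmer Slc39a14 probe was called in the same direction in both, in WT not by the methods' t-test (adjusted p = 0.084). The zinc importer Slc39a4 was also undetected on all control arrays and was at least 1.43-fold higher in WT (adjusted p = 0.00148) and 1.22-fold in Mapk9 KO, where the call was lost without Mapk9 KO control replicate 1 or Mapk9 KO injured replicate 2 (0.94 and 0.93). Slc39a11 rose by 1.05 in WT (SE 0.22, adjusted p = 0.00733), under the fold limit without either WT control replicate 2 or replicate 2 of WT injured (0.90 and 0.98), and its change in Mapk9 KO was 0.96 (adjusted p = 0.00401). The family Slc30 member that fell was Slc30a10, known for manganese export, which no injured array detected and which was at least 1.25-fold lower in WT (adjusted p = 0.00346) and 1.38-fold lower in Mapk9 KO (adjusted p = 3.42e-06). A dimmer probe of Slc30a7 rose in WT by 1.06 (adjusted p = 0.00719), a call lost without either WT control replicate 2 or replicate 2 of WT injured (0.92 and 1.0). The methods' t-test lost the WT calls of Slc30a10, Slc39a11 and this Slc30a7 probe (adjusted p = 0.0772, 0.0579 and 0.0579) and the Mapk9 KO call of Slc39a4 (0.0566).

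The iron exporter Slc40a1, ferroportin, fell in both genotypes. WT control arrays gave 12.36, 12.45 and 11.68 and WT injured arrays 10.38, 10.63 and 10.18, and the Mapk9 KO arrays gave 12.04, 12.24 and 12.08 and 10.23, 10.60 and 10.13. The groups did not overlap, and the falls were 1.76 (SE 0.25, adjusted p = 0.000818) and 1.80 (SE 0.19, adjusted p = 3.08e-05), beside the lower macrophage markers. Slc11a1, a metal carrier of phagosomes, did not fall. At its brightest probe it changed by 0.87 in WT (adjusted p = 0.0202) and rose by 1.04 in Mapk9 KO (SE 0.25, adjusted p = 0.0074), a call lost without Mapk9 KO control replicate 1 or Mapk9 KO injured replicate 2 (0.87 and 0.78) and by the methods' t-test, and 1 of its dimmer probes was called higher in both genotypes (1.33 and 1.56). Its other dimmer probes were not called in WT and were at least 2.8-fold and 1.59-fold higher in Mapk9 KO, where no control array detected them.

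Of the 17 organic ion carriers 11.8% were called in WT, beside 14.7% of all genes, and 41.2% in Mapk9 KO, beside 18.5%. Slc17a5, which exports sialic acid from lysosomes, gave 8.29, 8.36 and 7.92 in WT control and 7.03, 6.94 and 7.35 in WT injured arrays, and fell by 1.09 in WT (SE 0.21, adjusted p = 0.00491) and 1.22 in Mapk9 KO (SE 0.18, adjusted p = 0.000368). Slc22a18 was detected on no injured array and was at least 1.13-fold lower in WT (adjusted p = 0.0163), a call lost without WT control replicate 1, WT injured replicate 2 or WT injured replicate 3 (log2 change -0.82, -0.98 and -0.94), and at least 1.19-fold lower in Mapk9 KO. Called higher in Mapk9 KO were Slc22a4 (1.37), Slc16a4 (1.1), the sulfate carrier Slc13a4 and the gene listed as Slc22a9. No Mapk9 KO control array detected Slc13a4 or Slc22a9, which were at least 1.86-fold and 1.41-fold higher after injury. Slc13a4 lost its call without Mapk9 KO control replicate 3, and Slc22a4 and Slc22a9 without Mapk9 KO control replicate 1, and the methods' t-test lost Slc22a18 in WT and Slc22a4, Slc13a4 and Slc22a9 in Mapk9 KO. Of the members that are not carriers, the scaffold gene Slc9a3r1 rose by 1.12 in WT (SE 0.22, adjusted p = 0.00463), under the limit without WT injured replicate 2 (0.99), and the other 3 were not called.

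Genes outside the rule that work with carriers were taken as a list of 23 measured symbols, together with 4 organic anion carriers of the SLCO family counted among the 23. Of these, 5 rose and 1 fell in WT, where 7.5% and 7.15% of all genes did, and 8 rose and 3 fell in Mapk9 KO, beside 9.0% and 9.54%. Bsg, a chaperone of monocarboxylate carriers, was detected on no control array (5.54, 4.33 and 5.69 in WT) and on all 6 injured arrays (7.72, 6.77 and 7.23 in WT and 8.77, 7.60 and 8.39 in Mapk9 KO), with adjusted p = 0.00303 in WT. The sulfate-activating enzyme gene Papss2 rose by 1.59 in WT (SE 0.38, adjusted p = 0.0121). Among iron partners the transferrin gene Trf rose by 1.45 (SE 0.23, adjusted p = 0.00162) and Heph, a ferroxidase that works with ferroportin, fell by 1.97 (SE 0.22, adjusted p = 0.000176). In Mapk9 KO the sodium pump subunit gene Atp1b2 fell by 2.04 (adjusted p = 7.62e-06).

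The arrays of each genotype are separate, so the injury changes of WT and Mapk9 KO share no sample. Of the 34 members called in WT and the 44 called in Mapk9 KO, 31 were called in the same direction in both (14 higher, 17 lower), which was 91.2% of the WT list and 70.5% of the Mapk9 KO list. Over all genes 1797 were shared in direction, 79.4% of the WT list and 62.8% of the Mapk9 KO list, and the difference between members and all genes was not tested. No member was called in opposite directions. The 3 called in WT and not in Mapk9 KO were Slc6a13, Slc39a11 and Slc9a3r1, all with the same sign in Mapk9 KO, and 12 of the 13 called in Mapk9 KO and not in WT had the same sign in WT. Among these 13 were Slc16a9, at -1.0 in WT just under the fold limit and -1.06 in Mapk9 KO (adjusted p = 0.00463 and 0.00135), and Slc27a3, of the fatty acid transport proteins, at 0.42 and 1.07 (adjusted p = 0.224 and 0.00136). The Mapk9 KO call of Slc16a9 was lost without Mapk9 KO control replicate 3 or Mapk9 KO injured replicate 1, and that of Slc27a3 without Mapk9 KO control replicate 3 or Mapk9 KO injured replicate 3. Slc22a4, a carrier of ergothioneine, changed by 0.31 in WT and 1.37 in Mapk9 KO (adjusted p = 0.285 and 0.00926), and Slc7a4 was at least 1.27-fold lower in Mapk9 KO and, with an adjusted p of 0.0198, at least 1.32-fold lower in WT, where its fitted change missed the fold limit. The Mapk9 KO call of Slc7a4 was lost without Mapk9 KO control replicate 2, Mapk9 KO injured replicate 1 or Mapk9 KO injured replicate 3.

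**Figure D4:**
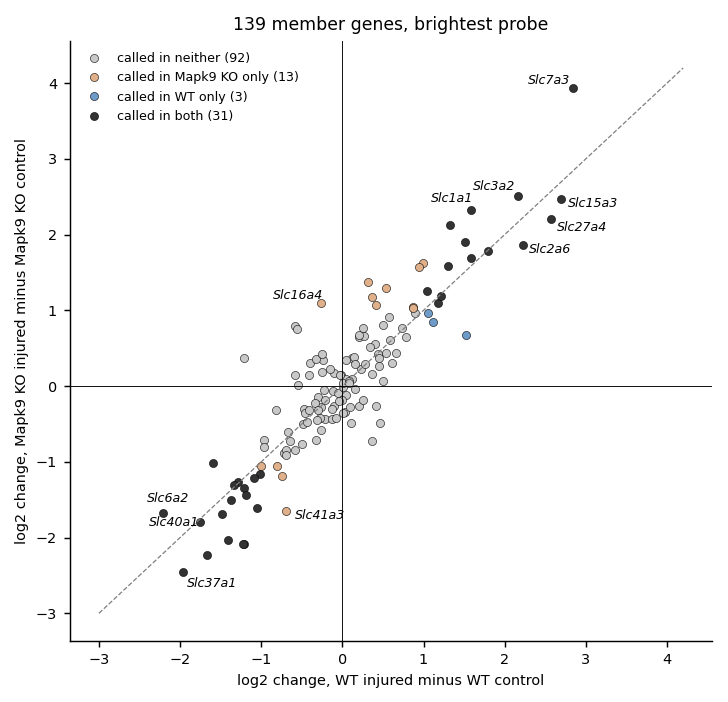
Log2 change after injury in WT (x axis) and in Mapk9 KO (y axis) of the 139 member genes at their brightest probe, coloured by where they were called, with a dashed line of equal change. The 31 genes called in both lie to the lower left or upper right of the origin, and Slc16a4 lies to the left of 0 in WT and above 1 in Mapk9 KO.

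The test of the difference itself, the interaction of genotype and injury over all 12 arrays, called 0 members and 0 genes (0.0% of 15434), while 19 members and 1361 genes had an unadjusted p under 0.05 in limma. The smallest interaction p values at brightest probes belonged to Slc35a3, Slc16a4, Slc41a3 and Slc1a5, named after their values were seen. Slc16a4, of the monocarboxylate carrier family, gave 7.57, 7.0 and 7.41 in WT control, 7.47, 6.85 and 6.87 in WT injured, 7.34, 7.12 and 6.55 in Mapk9 KO control and 8.29, 7.92 and 8.08 in Mapk9 KO injured arrays. All 3 Mapk9 KO injured arrays lay above the other 9 arrays. Its change was -0.26 in WT and 1.1 in Mapk9 KO (SE 0.22, adjusted p = 0.00294, not called without Mapk9 KO control replicate 3 or Mapk9 KO injured replicate 1, 0.87 and 1.0), and the difference of 1.36 (SE 0.34) had an adjusted p of 0.312. With the replicate number as a block the SE was 0.25 and the adjusted p 0.0484, and 0.441% of all genes were called in that fit. The differences were 1.32 for the Golgi UDP-N-acetylglucosamine carrier Slc35a3 (SE 0.33, adjusted p = 0.312) and -0.97 for the magnesium carrier Slc41a3 (SE 0.27, adjusted p = 0.312). At dimmer probes they were 0.73 and 0.55 for Slc35a3 (adjusted p = 0.446 and 0.522) and -1.4 for Slc41a3 (adjusted p = 0.312). The glutamine exchanger Slc1a5 (adjusted p = 0.329) was detected on no WT injured and no Mapk9 KO control array and on 2 arrays of each other group, so no size is given for its difference. Slc41a3 gave 8.24, 8.47 and 8.74 in Mapk9 KO control arrays, whose muscle marker means also lay above those of WT control, and 6.88, 6.93 and 6.67 after injury, below all other arrays, a fall of 1.65 (SE 0.19, adjusted p = 6.04e-05), beside a change of -0.69 in WT (adjusted p = 0.0398).

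**Figure D5:**
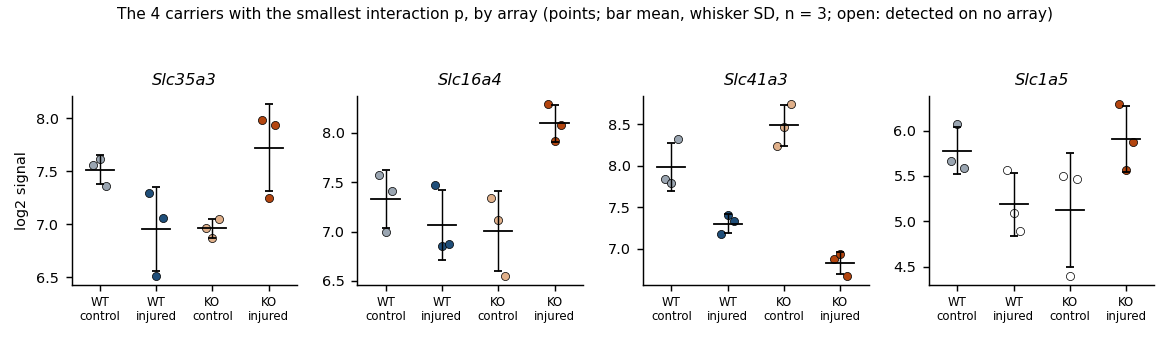
Log2 signal (y axis) of Slc35a3, Slc16a4, Slc41a3 and Slc1a5 on each array of the 4 groups (x axis), with the group mean and SD, and open points where no array of the group detected the probe. The Mapk9 KO injured arrays of Slc16a4 sit between 7.92 and 8.29, above all other arrays, and those of Slc41a3 between 6.67 and 6.93, below all other arrays.

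No member was called between the genotypes in control hips. The comparison of Mapk9 KO control with WT control arrays called 0 members and 17 of all genes (0.11%), and 9 members (986 genes) had an unadjusted p under 0.05 in limma, while the methods' t-test also called 0 members. The smallest adjusted p of a member was 0.350, for Slc22a17, with a difference of -0.95 (SE 0.22).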

How the data were processed

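Hip cartilage RNA of the 4 groups was labelled and hybridized by the authors to Illumina mouse BeadChips. The deposited log2 values, of 21004 probes, had been background-corrected with negative control probes and normalized with vsn by the authors. The deposited intensities per probe, not yet normalized, and the deposited detection p-values stand in a separate table, which was used for detection and for alternatives. Symbols are those of the files, and some are older names.

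Groups, replicate numbers and arrays were taken from the sample labels. Injured and control arrays were compared within each genotype, and the genotypes in control arrays, with limma 3.58.1 in R 4.3.3 on the log2 values of the groups compared. The interaction was fitted over all 12 arrays. P-values were adjusted over all 21004 probes by the Benjamini-Hochberg method, and a call needed a fold above 2 and an adjusted p under 0.05 (the interaction the adjusted p alone). They measure the spread between 3 pooled samples a group, and the number of arrays limits the precision. An exact permutation test of 3 against 3 cannot go below p = 0.1, so none was used. The fits were tested on simulated data.

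Same-numbered arrays deviated together: the correlation of their deviations from the group means was 0.153 to 0.390 over 18 pairs (median 0.249), against -0.289 to 0.0825 over 36 pairs with other numbers. The numbers therefore pair the samples, on the evidence of the values alone.

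Members named in the text were the up to 3 largest rises and falls per substrate class in WT without overlap, members of fixed functional sets, members whose probes disagreed and those differing by genotype. Slc6a8, Slc8a1, Slc19a1, Slc22a4, Slc22a9, Slc27a3, Slc16a9, Slc7a4 and other members outside this rule were named after their values were seen. Results of 1 functional set are not reported here. Members, gene lists and tests were chosen with earlier results of these data known. Alternatives were 2 other normalizations of the intensities, median centring, a detection filter, a fit of all 12 arrays, the methods' t-test, blocks for the replicate number and for the number in the label code, other thresholds, any probe of a gene, and leaving out each array. Promoter windows came from RefSeq GRCm38.p6.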

Additional observations from a re-analysis of the deposited data

Results flagged for a closer look

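The genotypes differed in the response of Slc16a4 when the replicate number was a block. The log2 difference between the Mapk9 KO and WT injury changes was 1.36 (SE 0.25, adjusted p = 0.0484, limma), with an adjusted p of 0.312 without the block and 0.0993 to 0.647 over the other alternatives. All 3 Mapk9 KO injured arrays lay above the other 9.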

How the results depend on the processing

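No member called at its brightest probe was called in the opposite direction under an alternative fit, and no called probe of the named genes turned its sign. Counting any probe, 1 member (Slc15a2) was called in both directions in Mapk9 KO. With the replicate number as a block the calls of all 34 members in WT and all 44 in Mapk9 KO were kept, and the paired fit changed no other call at a brightest probe than to add 1 interaction call (Slc16a4) and 1 lower gene in WT. Quantile normalization without background correction kept 13 of the 34 WT calls (8 higher and 5 lower, with 5 amino acid carriers higher, 2 lower and 1 ion carrier lower) and 21 of 44 in Mapk9 KO (12 higher and 9 lower, 3 amino acid carriers lower and 2 ion carriers lower). That alternative shrinks fold changes, since 33 and 44 of the calls still had an adjusted p under 0.05 in the same direction. The methods' t-test kept 23 of 34 calls in WT and 36 of 44 in Mapk9 KO, with 11 members lower in WT, 5 amino acid carriers higher and 3 lower. With no fold limit, and equally with a fold above 1.5, 26 were lower in WT, with 8 amino acid carriers lower and 1 ion carrier higher. In Mapk9 KO no fold limit gave 71 calls (36 higher and 35 lower, 2 ion carriers higher) and a fold above 1.5 gave 67 (35 and 32, 1 ion carrier higher). Counting any probe, 2 ion carriers were higher in WT and 3 in Mapk9 KO. Leaving out 1 array at a time gave 29 to 37 calls in WT (13 to 18 higher, 16 to 19 lower, amino acid carriers 7 to 10 higher and 4 to 6 lower, ion carriers 0 to 1 higher and 6 to 7 lower), the lowest without WT injured replicate 2. In Mapk9 KO it gave 40 to 46 calls (19 to 27 higher, 19 to 22 lower, amino acid carriers 9 to 10 higher and 4 to 7 lower, ion carriers 0 to 1 higher and 6 to 8 lower), and 0 calls for the interaction and for genotype. For the named genes at their brightest probe, 398 of 448 alternative values in WT and 454 of 490 in Mapk9 KO stayed on the same side of the threshold. Undetected probes give only bounds.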
